A study of Mus musculus with 2 samples.

Results

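The 10 genes described here encode proteins of the extracellular matrix of the heart, most of them proteoglycans. They were chosen by name, with earlier results of these data known, from the gene symbols of the deposited tables, which hold 22882 symbols. A proteoglycan is a core protein that carries one or more glycosaminoglycan chains, such as chondroitin, dermatan, keratan or heparan sulfate. The 6 small leucine-rich proteoglycans (SLRPs) are Dcn and Bgn of class I, Fmod, Lum and Prelp of class II, and Ogn of class III. These secreted proteins sit on collagen fibrils, where they are known to govern fibril diameter and spacing, and several of them bind transforming growth factor beta. Vcan encodes versican, a large chondroitin sulfate proteoglycan that binds hyaluronan. Hspg2 encodes perlecan, the heparan sulfate proteoglycan of basement membranes. Dpt and Lrrc15 are not proteoglycan genes in the strict sense. Dpt encodes dermatopontin, a matrix protein that binds decorin, and Lrrc15 encodes a membrane protein with leucine-rich repeats.

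The hearts came from C57BL6/J mice of mixed gender at 23 days of age, and both groups carried loxP-flanked Med1 alleles. Control mice were Med1fl/fl. In csMed1-/- mice the same allele was deleted by a Cre transgene under the alpha-myosin heavy chain promoter, which is active in cardiomyocytes, so other cells of the heart are not its target. RNA of 5 hearts per genotype was pooled and 1 library was made from each pool, so there are no replicates and the genotypes cannot be compared by a test. All differences below are plain ratios of FPKM in csMed1-/- to FPKM in Med1fl/fl, and a difference was counted when it was past 2-fold. FPKM gives fragments per kilobase of transcript, scaled to the size of the library in a way that is not stated. No library of Cre mice without the floxed allele was analysed here, so the transgene and the loss of Med1 cannot be told apart.

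Med1 itself measured 3.38 FPKM in the control library against 0.412 in csMed1-/-. The summed FPKM of the libraries was 780366 in control and 716365 in csMed1-/-. Read counts are not in the files used here, so absolute depth is unknown. Over 2461 rows above 0 and at most 0.15 FPKM in both libraries, the most common ratio of csMed1-/- to control was 0.719. Its inverse gives the csMed1-/- library a relative depth of 1.39 (control taken as 1). This holds only if rows at that ratio have equal fragment numbers in both libraries and FPKM was scaled to mapped fragments alone. A value of 0 in these files can be a failed estimate, as Actc1, the cardiac actin gene, is listed at 0 in control and at 9189 FPKM in csMed1-/-. None of the 10 genes is at 0 in either library, and each stands on a single row. In bulk tissue such as this, fewer cells of a type and less RNA per cell cannot be told apart.

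The matrix genes did not move in a common direction. Of the 10 genes, Bgn, Fmod, Prelp and Vcan were higher past 2-fold in csMed1-/- heart, Lum, Dpt and Lrrc15 were lower past 2-fold, and Dcn, Ogn and Hspg2 lay within 2-fold. For comparison, 10489 genes passed a filter on low values, namely a value above 0 in each library and at least 1 FPKM in one of them. Of these, 13.6% were higher and 18.0% lower past 2-fold, together 31.5%. The 10 genes were chosen with earlier results known, so these shares are given for scale alone. All 10 genes are among the 10489, although Vcan reached 1 FPKM in csMed1-/- heart alone and Lrrc15 in control alone. The log2 ratios ran from -7.25 for Lrrc15 to 3.22 for Fmod with a median of 0.20, against a median of -0.07 over all 10489 genes. Without Lrrc15 the median of the other 9 was 0.65, a choice made after the values were seen. From the highest to the lowest FPKM, the order in control was Bgn, Hspg2, Dcn, Dpt, Prelp, Lrrc15, Lum, Fmod, Ogn and Vcan. In csMed1-/- heart it was Bgn, Hspg2, Dcn, Prelp, Fmod, Dpt, Lum, Vcan, Ogn and Lrrc15, and without replicates neighbours in these orders cannot be set against an error. Past 4-fold stood 3 of the 10, Bgn and Fmod higher and Lrrc15 lower, beside 4.32% of all genes higher and 5.14% lower, together 9.46%.

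**Figure D1:**
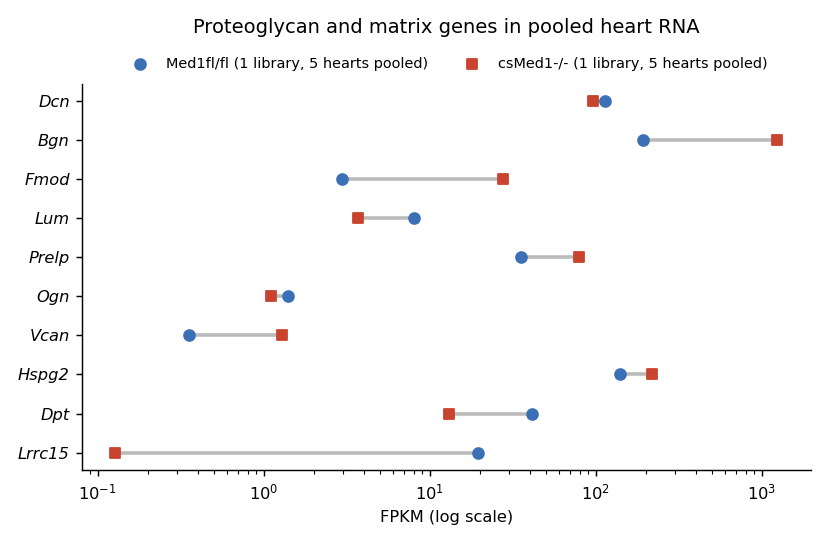
FPKM of each of the 10 genes on a log axis, with a circle for the Med1fl/fl library and a square for the csMed1-/- library, and a line joining them. Bgn moved from 194 to 1246 FPKM, Dcn stayed near 100 with 114 and 96.6 FPKM, and Lrrc15 went from 19.5 to 0.128 FPKM.

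**Figure D2:**
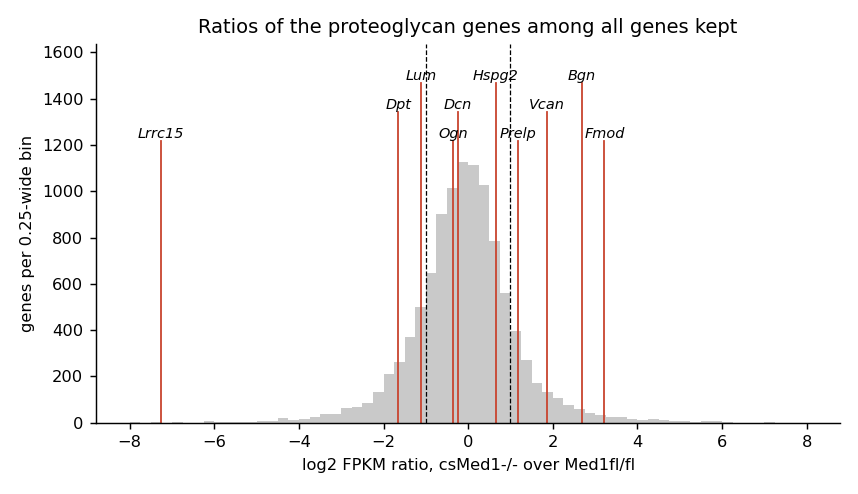
Histogram of the log2 FPKM ratio of csMed1-/- to Med1fl/fl over the 10489 genes kept, in bins 0.25 wide with ratios beyond the axis placed in the end bins, and dashed lines at 2-fold. Red lines mark the 10 matrix genes, which spread from -7.25 (Lrrc15) to 3.22 (Fmod).

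Class I held the most abundant SLRP genes, one of them much higher in csMed1-/- heart and the other within 2-fold. Bgn encodes biglycan, which carries chondroitin or dermatan sulfate chains and, when released from the matrix, is known as a ligand of Toll-like receptors. Bgn (ENSMUSG00000031375.17) lies on chromosome X from 73483602 to 73495933 on the plus strand, and its longest coding transcript has 8 exons. It measured 194 FPKM in the control library against 1246 in csMed1-/-, 6.42 times as much. Its place among the 10489 genes by level went from 540 to 101, and 97.8% of these genes had a lower ratio. Dcn encodes decorin, the closest relative of biglycan, with a single such chain. Dcn (ENSMUSG00000019929.16) lies on chromosome 10 from 97479609 to 97518143 on the plus strand. It measured 114 FPKM in the control library against 96.6 in csMed1-/-, a ratio of 0.847. Within a library, where scaling has no effect, there was 1.70 times as much Bgn as Dcn in control and 12.9 times as much in csMed1-/- heart.

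The RefSeq start region of Bgn is shown because Bgn had the largest gain in FPKM of the 10 genes. It covers 250 bases before to 50 bases after the annotated start on GRCm38.p6 (chrX:73483351-73483650, plus strand, 5′ to 3′). Capitals here and in the later sequences mark matches on either strand to the TATA box (written TATAAA), the GC box (written GGGCGG), the SMAD box (written CAGAC), the AP-1 motif (written TGANTCA), the nuclear receptor half-site (written AGGTCA) and the TEAD motif (written CATTCC).
Bgn: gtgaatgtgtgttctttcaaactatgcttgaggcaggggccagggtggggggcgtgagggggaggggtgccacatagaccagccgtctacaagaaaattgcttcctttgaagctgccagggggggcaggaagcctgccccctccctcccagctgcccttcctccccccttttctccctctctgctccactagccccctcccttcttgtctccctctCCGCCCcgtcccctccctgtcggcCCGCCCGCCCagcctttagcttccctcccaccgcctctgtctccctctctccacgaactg
The window holds 3 GC box matches, of which the last pair overlap, and none of the other motifs. Of the 32851 windows of this length in the table, 35.7% hold a GC box, 49.6% a SMAD box, 16.3% a nuclear receptor half-site, 14.7% a TEAD motif, 13.6% a TATA box and 7.81% an AP-1 motif. A match is a description of the letters and not of binding. Entries for 8 of the 10 genes were found, and Dcn and Lum were not matched.

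Class II contained genes of opposite direction. Fmod encodes fibromodulin, a keratan sulfate proteoglycan known best from tendon and cartilage, where it guides collagen cross-linking. Fmod (ENSMUSG00000041559.7, chromosome 1, 134037254 to 134048277, plus strand) measured 2.95 FPKM in the control library against 27.6 in csMed1-/-. Its ratio of 9.33 was the highest of the 10 genes, and 1.36% of all genes kept had a higher one. Lum encodes lumican, which competes with fibromodulin for a site on collagen. Lum (ENSMUSG00000036446.5, chromosome 10, 97565128 to 97572703, plus strand) measured 8.04 FPKM in the control library against 3.72 in csMed1-/-, 2.16-fold less. Lum was therefore above Fmod in control, 2.72 to 1, and below it in csMed1-/- heart, where Fmod was 7.40 times as high as Lum. The ratio of Lum is close to the threshold and was within 2-fold with a pseudocount of 1 or with the libraries scaled to the same summed FPKM.

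Prelp was the most abundant class II gene. It encodes a protein that binds both collagen and heparan sulfate and is thought to anchor basement membranes to the fibrils around them. Prelp (ENSMUSG00000041577.5, chromosome 1, 133910304 to 133921414, minus strand) measured 35.4 FPKM in the control library against 79.6 in csMed1-/-, a ratio of 2.25. The level of Prelp was 12.0 times that of Fmod in control and 2.89 times in csMed1-/- heart. The start regions of Fmod and Prelp, which are neighbours in the genome and were both higher, are shown on GRCm38.p6 as given by RefSeq (chr1:134037004-134037303, plus strand, and chr1:133921352-133921651, minus strand).
Fmod: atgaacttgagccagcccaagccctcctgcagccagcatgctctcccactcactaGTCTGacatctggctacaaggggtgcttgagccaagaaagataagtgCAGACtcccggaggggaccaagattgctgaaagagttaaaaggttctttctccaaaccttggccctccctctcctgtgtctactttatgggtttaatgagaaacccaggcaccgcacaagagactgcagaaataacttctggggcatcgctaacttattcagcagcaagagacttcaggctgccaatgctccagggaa
Prelp: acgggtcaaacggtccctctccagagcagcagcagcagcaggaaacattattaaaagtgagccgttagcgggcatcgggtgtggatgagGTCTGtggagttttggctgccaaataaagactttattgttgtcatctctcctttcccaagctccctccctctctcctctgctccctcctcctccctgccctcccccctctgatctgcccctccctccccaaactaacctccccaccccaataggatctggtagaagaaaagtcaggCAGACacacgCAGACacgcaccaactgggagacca
The Fmod window holds 2 SMAD box matches and the Prelp window 3, and neither holds any other motif of the set. Since 49.6% of all windows hold a SMAD box, its presence in both does not set them apart.

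Ogn was the only class III member and was low in both libraries. It encodes osteoglycin, also called mimecan, a matrix protein that is known to affect collagen fibril size. Ogn (ENSMUSG00000021390.6, chromosome 13, 49608046 to 49624501, plus strand) measured 1.40 FPKM in the control library against 1.10 in csMed1-/-, a ratio of 0.784. The gene lies inside Cenpp, a gene on the opposite strand at 0.817 FPKM in the control library against 0.368 in csMed1-/-. The libraries were directional, but whether the counting used strand is not given in the sources used here, so these low values are uncertain.

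The large proteoglycans were both higher in csMed1-/- heart, Vcan past 2-fold and Hspg2 within it. Vcan, needed for formation of the heart valves and endocardial cushions in the embryo, lies on chromosome 13 from 89655312 to 89742509 on the minus strand (ENSMUSG00000021614.16). It measured 0.356 FPKM in the control library against 1.29 in csMed1-/-, a ratio of 3.64, and was the lowest of the 10 genes in control. With a pseudocount of 1 its log2 ratio fell from 1.86 to 0.76, inside 2-fold. Its 8 annotated coding transcripts are not separated in the files. Hspg2 lies on chromosome 4 from 137468769 to 137570630 on the plus strand (ENSMUSG00000028763.17), and its longest coding transcript has 97 exons and 14187 bases. It measured 140 FPKM in the control library against 219 in csMed1-/-, a ratio of 1.57. Perlecan transcripts were thus abundant in both libraries, at 393 times the level of Vcan in control and 169 times in csMed1-/- heart.

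Dpt and Lrrc15 were the genes with the largest decreases. Dpt (ENSMUSG00000026574.5, chromosome 1, 164796644 to 164824266, plus strand) measured 41.3 FPKM in the control library against 13.1 in csMed1-/-, 3.15-fold less. Of the 10489 genes, 8.01% had a lower ratio. Set against decorin, the protein it binds, Dpt stood at 0.362 of the Dcn level in control and at 0.136 in csMed1-/- heart. Lrrc15, known from fibroblasts of inflamed tissue and tumour stroma, lies on chromosome 16 from 30269302 to 30283256 on the minus strand (ENSMUSG00000052316.9). It measured 19.5 FPKM in the control library against 0.128 in csMed1-/-, 153-fold less. That size rests on the low csMed1-/- value, and adding a pseudocount of 0.1 or 1 FPKM to each library took its log2 ratio from -7.25 to -6.43 or -4.19. Of all 10489 genes only 4 had a lower ratio, which places Lrrc15 at rank 5 from the bottom. The start regions of these genes are shown as the pair with the largest decreases (RefSeq, GRCm38.p6, chr1:164796413-164796712, plus strand, and chr16:30283205-30283504, minus strand).
Dpt: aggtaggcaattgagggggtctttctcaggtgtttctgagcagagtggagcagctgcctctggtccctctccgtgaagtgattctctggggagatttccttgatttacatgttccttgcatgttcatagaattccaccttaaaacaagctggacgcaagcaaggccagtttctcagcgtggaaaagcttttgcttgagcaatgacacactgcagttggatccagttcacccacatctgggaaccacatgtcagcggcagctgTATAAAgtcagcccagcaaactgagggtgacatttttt
Lrrc15: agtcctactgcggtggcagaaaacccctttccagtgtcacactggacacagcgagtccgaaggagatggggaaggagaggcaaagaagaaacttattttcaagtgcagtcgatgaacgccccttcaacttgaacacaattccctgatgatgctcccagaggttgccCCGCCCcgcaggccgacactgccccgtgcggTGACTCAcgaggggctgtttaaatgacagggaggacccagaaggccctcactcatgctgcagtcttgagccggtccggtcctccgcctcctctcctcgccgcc
The Dpt window holds 1 TATA box match, at base 263 of the window, which is after the annotated start. The Lrrc15 window holds 1 GC box match and 1 AP-1 match. A nuclear receptor half-site was in none of the 8 windows, and 16.3% of all windows hold one.

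Added up, the 10 genes measured 557 FPKM in the control library against 1688 in csMed1-/-, 3.03 times as much. Nearly all of the gain was biglycan. Without Bgn, a sum chosen after the values were seen, the other 9 genes had 363 and 442 FPKM, a ratio of 1.22. The share of Bgn in the summed FPKM went from 34.8% in control to 73.8% in csMed1-/- heart, while that of Dcn went from 20.5% to 5.73% and that of Hspg2 from 25.1% to 12.98%. Dpt and Lrrc15 together with Lum went from visible shares of 7.42%, 3.50% and 1.44% in control to 0.776%, 0.00758% and 0.221%. Over the 6 SLRPs the sum went from 356 to 1454 FPKM.

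**Figure D3:**
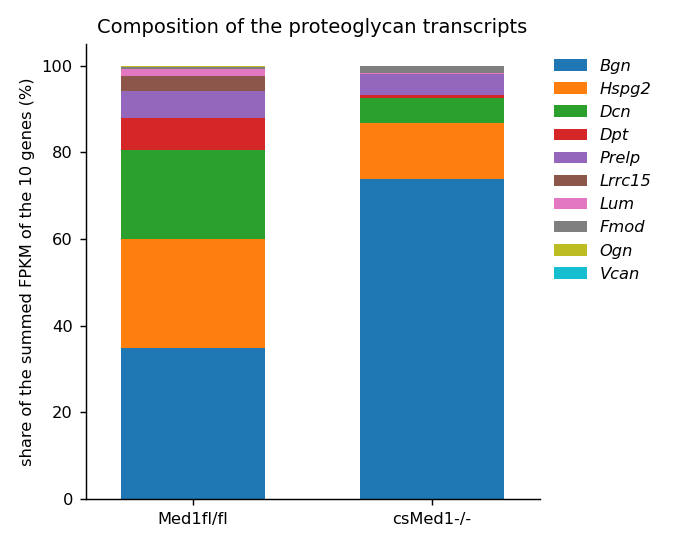
Stacked bars of each gene's share (%) of the summed FPKM of the 10 genes, 1 bar for the Med1fl/fl library and 1 for the csMed1-/- library. Bgn, the bottom segment, takes 34.8% of the control bar and 73.8% of the csMed1-/- bar, and Dcn shrinks from 20.5% to 5.73%.

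Most SLRP genes lie in clusters, so the neighbours of the members were read from the same tables. They were looked up after the members' values were known. On chromosome 10, Dcn, Lum, Kera and Epyc lie side by side within 203 kb, all on the plus strand. Kera and Epyc, known from cornea and cartilage, were at 0.00951 and 0 FPKM in control and at 0 in csMed1-/- heart, so the cluster was represented by Dcn and Lum alone. On chromosome 1, Optc, Prelp and Fmod lie within 151 kb. Optc, known from the eye, was close to 0 with 0.00911 and 0.0264 FPKM, and both expressed genes of the cluster were higher past 2-fold. On chromosome 13 the 4 genes Ecm2, Aspn, Omd and Ogn lie within 120 kb, and they did not share a direction. Aspn, which encodes asporin, measured 0.229 FPKM in the control library against 1.30 in csMed1-/-, a ratio of 5.67. Omd had 1.89 and 2.59 FPKM, and Ecm2 had 1.80 and 1.03 FPKM. All 4 genes lie inside Cenpp on the opposite strand, so the uncertainty given for Ogn holds for each of these low values.

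The neighbour of Lrrc15 also had a far lower value. Cpn2, which encodes the regulatory subunit of carboxypeptidase N and, like Lrrc15, has leucine-rich repeats, lies 1.80 kb from Lrrc15 on the same minus strand. It measured 1.23 FPKM in the control library against 0.00966 in csMed1-/-, a log2 ratio of -6.99 beside -7.25 for Lrrc15. The Cpn2 ratio rests on a csMed1-/- value near 0 and a control value only just above 1 FPKM. Its size is thus less certain than that of Lrrc15, and the likeness of the ratios should not be read as a matched decrease. Gp5, the platelet glycoprotein gene 24.4 kb on the other side of Lrrc15, measured 0.0937 FPKM in the control library against 0.415 in csMed1-/-. Gp5 was so low in control that a decrease of that size could not have been seen there. Both pools are labelled with the same strain, and with 1 pool per genotype the loss of Med1, the transgene and any other difference between the pools cannot be told apart at this locus.

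**Figure D4:**
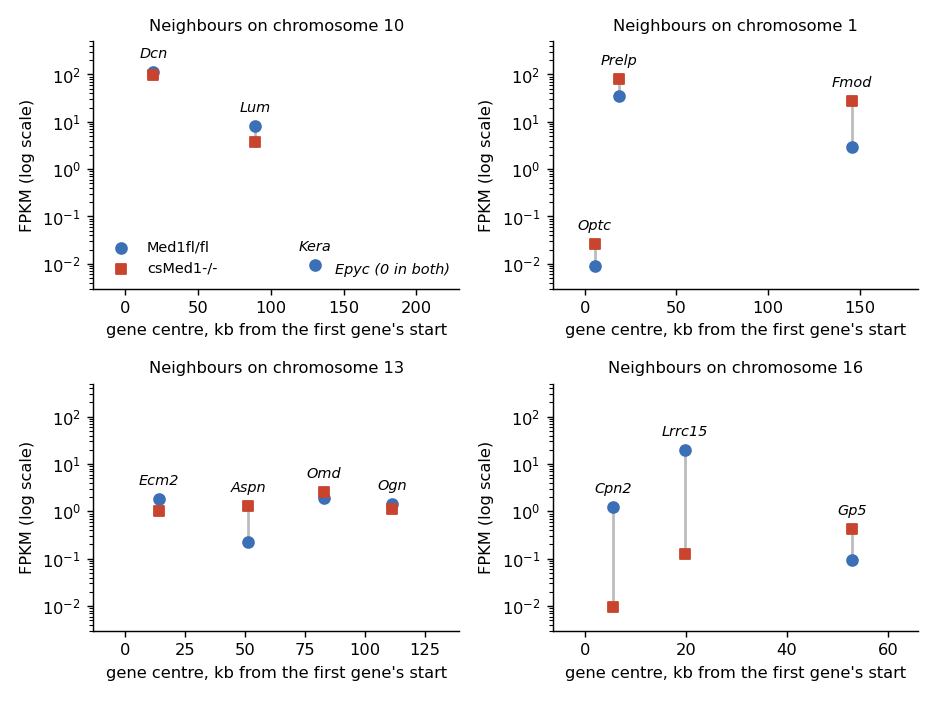
FPKM (log axis) of the members and their gene neighbours against the gene's centre in kb from the start of the first gene, for 4 loci, with circles for Med1fl/fl and squares for csMed1-/-. Values of 0 are not drawn (Kera in csMed1-/-, Epyc in both), and Prelp and Fmod both sit higher in csMed1-/-. Lrrc15 and Cpn2 both sit more than 100-fold lower, on csMed1-/- values of 0.128 and 0.00966 FPKM that leave the size uncertain.

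Among related genes, other core proteins of the matrix mostly stayed within 2-fold, as did genes in general. For every count of related genes below, the share over all 10489 genes kept was 13.6% higher and 18.0% lower past 2-fold. Of 11 other SLRP and SLRP-like genes, 6 passed the filter on low values, of which Aspn was higher and Chad lower past 2-fold. Aspn and Chad each reached 1 FPKM only in the library where they were higher. Podn, which encodes podocan and was the most abundant of the 6, had 7.06 and 4.64 FPKM. Of 14 other matrix proteoglycan and related genes 8 passed, 3 of them higher and none lower. These were Smoc1, of a matricellular protein (2.32 to 11.3 FPKM), Spock2, the gene of testican 2 (3.76 to 11.6 FPKM), and Prg4, the gene of lubricin (2.04 to 5.83 FPKM). The basement membrane genes of the list, Agrn (22.3 and 19.9 FPKM), Col18a1 (7.07 and 11.1 FPKM) and Col15a1 (63.2 and 47.7 FPKM), lay within 2-fold like Hspg2, as did Smoc2 (57.6 and 32.8 FPKM). Acan, which encodes aggrecan of cartilage, was at 0.0334 and 0.0301 FPKM.

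At the cell surface, 4 of 12 expressed proteoglycan genes were higher past 2-fold and 1 was lower, with a median log2 ratio of 0.42. Sdc4, which encodes syndecan 4 of focal adhesions, measured 9.33 FPKM in the control library against 31.1 in csMed1-/-. Gpc4 (15.4 to 34.3 FPKM), Cspg4 (14.2 to 31.4 FPKM) and Cd44, the hyaluronan receptor (3.28 to 9.88 FPKM), were the others. Tgfbr3, which encodes betaglycan, a coreceptor for transforming growth factor beta, was lower with 10.4 and 3.64 FPKM. Gpc1 was the most abundant, with 299 and 333 FPKM.

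Genes that build the chains mostly lay within 2-fold, beside 31.5% of all genes kept that were past it. Of 8 expressed chondroitin and dermatan sulfate enzymes, Chpf and Chpf2 were higher past 2-fold and none was lower. Both take part in polymerising chondroitin. Chpf measured 34.9 FPKM in the control library against 129 in csMed1-/-, and Chpf2 had 9.87 and 50.7 FPKM. Chst14, which sulfates dermatan, had 12.3 and 9.58 FPKM. Of 12 expressed heparan sulfate genes 1 was past 2-fold, Sulf2, an extracellular sulfatase, with 36.7 and 79.3 FPKM, and the median log2 ratio was -0.08. The chain polymerase genes Ext1 (8.16 and 6.51 FPKM) and Ext2 (37.3 and 46.6 FPKM) lay within 2-fold. None of the 3 expressed keratan sulfate genes was past 2-fold, B4galt1 having 43.0 and 31.1 FPKM. Among 11 expressed genes of the linker region and of sulfate and sugar donors, Slc35b2, the sulfate donor transporter of the Golgi, had 46.2 and 116 FPKM, Uxs1 had 2.26 and 4.60 FPKM, and the other 9 were within 2-fold. They include Fam20b, the xylose kinase (12.1 and 6.75 FPKM), and B3gat3 (48.8 and 63.7 FPKM). Of the hyaluronan genes 3 were expressed and all lay within 2-fold, Hyal2 with 43.2 and 82.4 FPKM being the most abundant.

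Proteases and enhancers that act on these core proteins and on procollagen had a median log2 ratio of 1.28 over 12 expressed genes. Past 2-fold, 7 of them were higher and 1 lower. Adamts4, Adamts5, Adamts8 and Mmp3 among the higher genes reached 1 FPKM in csMed1-/- heart alone. They passed the filter only through the library where they were high, which raises the count and the median. Adamts4, which cleaves versican and aggrecan, measured 0.0947 FPKM in the control library against 2.37 in csMed1-/-. Adamts1 (1.82 to 5.93 FPKM) and Adamts5 (0.416 to 1.04 FPKM), which cleave the same substrates, were also higher, as was Adamts8 (0.355 to 1.85 FPKM). Bmp1, the protease that removes the propeptides of biglycan and of fibrillar procollagens, had 20.6 and 48.8 FPKM. Its enhancer Pcolce had 97.5 and 268 FPKM, and Mmp3 had 0.910 and 5.70 FPKM. Adamts15, another versicanase, was lower with 5.63 and 1.92 FPKM, and Mmp2, the most abundant in control, had 102 and 132 FPKM.

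The collagens that SLRPs bind had a median log2 ratio of 0.76 over 11 expressed genes, with 5 higher past 2-fold and none lower. Col1a1 measured 129 FPKM in the control library against 502 in csMed1-/-, and Col12a1, Col5a2, Col1a2 and Col5a1 were the others past 2-fold. Of these, Col12a1 (0.184 to 4.31 FPKM) reached 1 FPKM in csMed1-/- heart alone. Col3a1 (139 and 220 FPKM) and Col6a3 (15.5 and 13.9 FPKM) lay within 2-fold. Beside Col1a1 within the same library, Bgn went from 1.50 to 2.48 times and Dcn from 0.881 to 0.193 times its level. Of 9 expressed ligands and readouts of transforming growth factor beta, 6 were higher past 2-fold and none lower, with a median of 1.37. They include Tgfb2 (0.799 to 7.51 FPKM), Ltbp2 (0.591 to 29.6 FPKM) and Ctgf (30.0 to 373 FPKM), while Tgfbi (19.2 and 20.9 FPKM) lay within 2-fold. Tgfb2 and Ltbp2 passed the filter only through csMed1-/- heart, where they were high, which raises the count and the median.

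**Figure D5:**
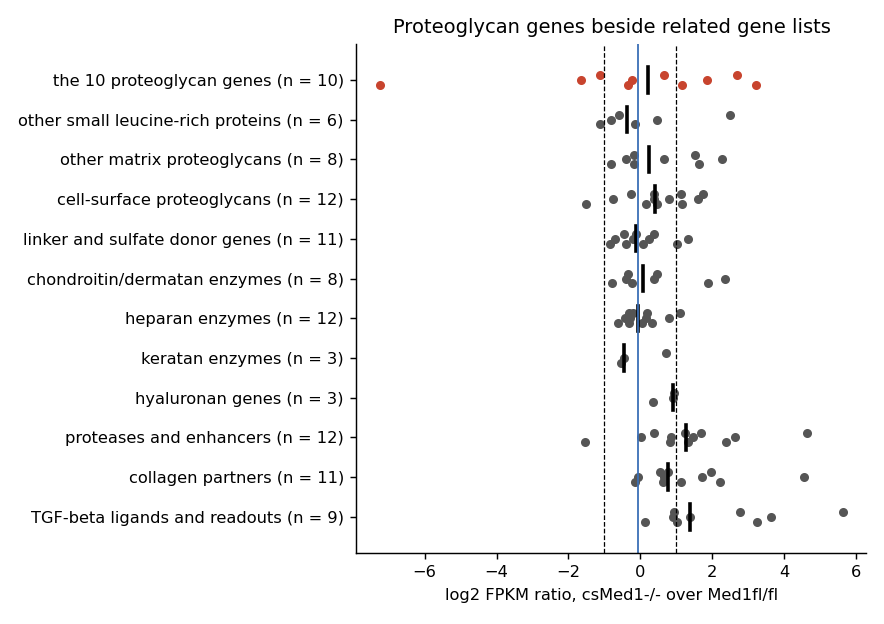
The log2 FPKM ratio of csMed1-/- to Med1fl/fl for the 10 matrix genes (red) and for the genes of 11 related lists that passed the filter on low values (grey), 1 dot per gene. Black bars are medians, dashed lines mark 2-fold and the blue line is the median of all genes kept, -0.07. The 10 genes spread more widely than the enzymes, and the proteases and the transforming growth factor beta genes lie mostly to the right. Of these, Adamts4, Adamts5, Adamts8, Mmp3, Tgfb2 and Ltbp2 passed the filter only through csMed1-/- heart, where they were high. That moves both medians to the right.

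Markers of the cell types of the heart were read from the same libraries. Of the 8 fibroblast markers 7 were expressed, and Tcf21 (10.9 to 25.6 FPKM) and Dpep1 (44.4 to 221 FPKM) were higher past 2-fold and none lower. The receptors Pdgfra (4.09 and 4.03 FPKM) and Pdgfrb (49.6 and 45.9 FPKM) and the surface marker Thy1 (12.7 and 8.88 FPKM) lay within 2-fold. The summed level of the list was 1662 FPKM in the control library against 1581 in csMed1-/-. Most of that sum was Gsn (1538 and 1274 FPKM), so it says little about the other markers. Of the markers of activated fibroblasts, 5 of 7 expressed were higher past 2-fold, Cilp (1.96 to 52.6 FPKM), Cthrc1 (0.258 to 5.62 FPKM) and Postn (1.57 to 27.4 FPKM) the most. Their summed level, set mostly by Acta2, was 588 and 417 FPKM. Smooth muscle and pericyte markers were 4 higher and 1 lower past 2-fold of 8, with sums of 1995 and 5713 FPKM. Most of these sums was Des (1871 and 4851 FPKM), which cardiomyocytes also express. Cnn1 went from 4.32 to 622 FPKM, and the 1 lower marker, Myh11, from 3.68 to 1.79 FPKM. Kcnj8 (43.2 and 24.9 FPKM) and Notch3 (21.1 and 19.1 FPKM) were among the 3 within 2-fold. Endothelial markers were 1 higher and 3 lower of 8 (523 and 458 FPKM), and macrophage markers were all within 2-fold, 6 of 8 being expressed (132 and 165 FPKM). Cardiomyocyte markers were lower past 2-fold for 3 of 6 expressed, with a summed level of 56427 and 35491 FPKM. Actc1 counts in these sums as 0 in control and as 9189 FPKM in csMed1-/-, so they do not compare like with like. Myh6 had no row of its own, and a joint Myh6,Myh7 row, left out of the sums, was at 0 and 647 FPKM. Of the epicardial list 3 of 8 were expressed, 1 of them higher (4.82 and 10.3 FPKM). Of the cartilage and tendon list 2 of 8 were expressed and both were higher, Scx (5.23 to 65.8 FPKM) and Sox9 (0.413 to 1.41 FPKM). The summed level of 5.72 and 67.2 FPKM was nearly all Scx. The cartilage genes Matn1 and Matn3 were at 0 in both libraries. In the adipocyte list 2 of 8 were expressed, both within 2-fold (212 and 172 FPKM), and Lep, Cfd and Retn were at 0 in both libraries while Adipoq, Plin1 and Cidec were at 0 in control. Of the markers past 2-fold, Cthrc1, Tnc, Krt19 and Sox9 passed the filter through csMed1-/- heart alone, where they were higher. The part of these cell types in the values of the 10 genes was not tested.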

How the data were processed

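RNA-seq of heart RNA pooled from 5 mice was analysed for Med1fl/fl and csMed1-/- mice, 1 library each, grouped by the genotype label. The authors aligned reads of poly(A)-selected directional libraries to mm10 with TopHat 2.0.8b and deposited FPKM values computed for known genes with Cufflinks and Cuffdiff 2.1.1. The submitters' processing notes name further tools without a role. The library scaling is not stated.

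The 23424 rows were summed over the 412 symbols on several rows, and csMed1-/- FPKM was divided by control FPKM with no pseudocount. Genes were kept when neither library was at 0 and the higher value reached 1 FPKM. With 1 library per genotype no test was made. The ratio calculation was tested on simulated data. Gene positions came from GENCODE M21 (GRCm38) and start regions from RefSeq. The members and lists were chosen with earlier results of these data known. Named genes are the members, Med1, and per related list the highest and lowest ratio at 5 FPKM or more and the most abundant gene. Genes past 2-fold were also named where 5 or fewer were counted. Marker lists were described by their counts, sums and defining markers at 0. Single markers with values, the other genes named, the neighbours and the motifs were chosen after values were seen. Alternatives were other pseudocounts, filters, scalings, row choices and a 4-fold threshold. Python 3.11.15, numpy 2.4.6, pandas 2.3.3 and matplotlib 3.10.9 were used.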

Additional observations from a re-analysis of the deposited data

How the results depend on the processing

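Filters leave the ratio of a kept member unchanged, and row choices cannot act because each member stands on a single row. Only the pseudocounts and scalings could therefore move a member's ratio, so the next count overstates how much was tried. Of 95 recomputed ratios of single members 92 stayed on their side of 2-fold with the same direction, and 3 moved inside it without changing direction. These were Lum with a pseudocount of 1 (-0.94 on the log2 scale) or with libraries scaled to the same summed FPKM (-0.99), and Vcan with a pseudocount of 1 (0.76). Under a 4-fold threshold 3 members were past it, 2 higher and 1 lower, and 12 genes of the related lists in place of 34. Over all 10489 genes kept, 9.46% were past 4-fold and 31.5% past 2-fold. The related lists held 55 genes past 2-fold with no filter on low values and 21 with 10 FPKM in at least one library. The share over all genes was not computed under these filters. These counts show only how far the filter moves them and are no result about the lists. The log2 ratio of the members' sum, 1.60, was 0.28 without Bgn, an alternative chosen after seeing the data. The scalings tried shifted every log2 ratio by -0.04 to 0.12. Medians and sums were counted as moved past 1.5 times, single genes when they crossed 2-fold or changed direction. With a pseudocount of 1 the log2 ratio of Lrrc15 went from -7.25 to -4.19 and that of Med1 from -3.04 to -1.63, both still past 2-fold. The members' median, 0.20, was 0.65 without Lrrc15, also chosen after seeing the data, and 0.65 with 10 FPKM in at least one library. No paired analysis was possible because each genotype has 1 library, and for the same reason no replicate could be left out. Without replicates or read counts, the error of any single FPKM is unknown, and the lowest values (Vcan and Ogn in both libraries, Lrrc15 in csMed1-/- heart) rest on the fewest reads per kilobase.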
